A study of Mus musculus with 18 samples.

Results

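The Reg family of antimicrobial lectins was followed in mouse small intestinal organoids, which are 3-dimensional cultures grown from intestinal crypts. Its 7 members, Reg1, Reg2, Reg3a, Reg3b, Reg3d, Reg3g and Reg4, were taken by gene symbol from a table of 55487 genes. The family was chosen from results of these same agonist comparisons, so the members' values in them are given as a description, without p-values. Organoids were grown from crypts of wild-type (WT) female C57BL/6 mice and were kept for 4 days with 1 μM norepinephrine, a ligand of both α- and β-adrenergic receptors, with 1 μM UK14304, an agonist selective for α2-adrenergic receptors, or with a vehicle. The vehicle was HCl for norepinephrine (4 samples against 5) and DMSO for UK14304 (4 samples against 5), which gives 18 samples in all. The sample names carry a number from 1 to 5, and replicate 5 has no vehicle sample. Organoids hold epithelium only, without the immune cells that supply cytokines to it in the gut.

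Reg proteins are small secreted proteins built around a C-type lectin fold. Reg3g and Reg3b bind bacteria and keep them away from the intestinal surface, and both are induced in epithelium by interleukin-22 through the transcription factor STAT3 and by microbial signals through MyD88. Reg1 and Reg2 are known foremost as products of the exocrine pancreas and of regenerating tissue, Reg3a and Reg3d are further members of the same gene cluster, and Reg4 is a more distant member found in secretory and enteroendocrine cells of the gut.

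Of the 7 genes, 6 lie in one cluster of 98.2 kb on chromosome 6 (GRCm38, as deposited). From one end to the other these are Reg3b (chr6:78370657-78373466, plus strand), Reg3d (chr6:78375874-78378865, minus), Reg3a (chr6:78380709-78383827, plus), Reg2 (chr6:78395623-78408106, plus), Reg1 (chr6:78422711-78428667, plus) and Reg3g (chr6:78466269-78468872, minus). Reg4 stands apart on chromosome 3 (chr3:98222156-98236748, plus). The table holds no gene that overlaps any of the 7. No stretch of 50 bases, the read length, was shared between the GENCODE M21 transcripts of any 2 members. Within Reg1, 3.65% of such stretches also occurred in transcripts of genes outside the family, and within Reg2 11.3% did, while Reg3a, Reg3b, Reg3d, Reg3g and Reg4 shared none.

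The promoter windows of 4 members are shown because the results turn on them: Reg3b and Reg3g as the bacteria-binding pair, Reg1 for its differences between replicate numbers and Reg4 for its lower level with both agonists. Each window is from RefSeq on GRCm38.p6, runs from 250 bases before to 50 bases after the annotated start of transcription, and is written 5′ to 3′ on the strand of the gene. Capitals mark a match to TTCNNNGAA, the core of the STAT binding motif, which reads the same on both strands.
Reg3b (chr6:78370635-78370934, plus strand): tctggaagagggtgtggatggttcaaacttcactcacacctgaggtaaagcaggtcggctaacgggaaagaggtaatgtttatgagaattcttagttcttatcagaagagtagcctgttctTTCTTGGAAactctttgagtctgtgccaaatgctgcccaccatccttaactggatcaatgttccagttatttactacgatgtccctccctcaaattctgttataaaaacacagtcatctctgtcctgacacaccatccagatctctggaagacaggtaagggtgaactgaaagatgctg
Reg3g (chr6:78468825-78469124, minus strand): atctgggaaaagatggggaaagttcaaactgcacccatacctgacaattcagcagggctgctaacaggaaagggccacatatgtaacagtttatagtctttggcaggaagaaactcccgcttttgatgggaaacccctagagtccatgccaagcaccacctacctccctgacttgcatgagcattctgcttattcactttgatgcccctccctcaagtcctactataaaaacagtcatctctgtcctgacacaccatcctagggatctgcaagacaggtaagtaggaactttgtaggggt
Reg1 (chr6:78425733-78426032, plus strand): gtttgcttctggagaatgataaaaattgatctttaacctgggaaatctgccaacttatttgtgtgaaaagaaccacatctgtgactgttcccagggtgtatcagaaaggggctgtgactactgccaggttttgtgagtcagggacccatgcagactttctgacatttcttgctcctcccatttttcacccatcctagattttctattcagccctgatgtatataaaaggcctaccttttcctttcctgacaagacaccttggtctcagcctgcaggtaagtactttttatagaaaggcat
Reg4 (chr3:98221906-98222205, plus strand): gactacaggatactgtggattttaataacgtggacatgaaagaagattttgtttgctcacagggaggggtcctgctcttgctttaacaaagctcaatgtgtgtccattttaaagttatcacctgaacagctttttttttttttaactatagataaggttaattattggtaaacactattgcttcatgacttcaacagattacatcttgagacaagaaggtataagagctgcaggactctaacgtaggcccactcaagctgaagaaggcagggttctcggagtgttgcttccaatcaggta
In these windows Reg3b held 1 match, starting 129 bases before the start of transcription, and Reg3g, Reg1 and Reg4 held none. Of the other members, Reg3d held 1 match (TTCCCAGAA, starting 238 bases before the start), and Reg2 and Reg3a held none, so that 2 of 7 members had the motif. It was found in 9.55% of the 27025 genes with a promoter window and in 8.30% of all 32851 windows. The windows of Reg3b and Reg3g were the most alike of the 21 pairs, with 70.1% identical columns in a global alignment, followed by Reg1 and Reg2 with 60.7%, and the other 19 pairs had between 51.6% and 58.5%.

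Total counts per sample ranged from 21866149 to 27850373. Epithelial genes were abundant (the sum over Epcam, Cdh1, Vil1 and Krt8 was 4948 to 5454 CPM in any sample), while the summed immune markers were at 0.975 to 2.35 CPM and the summed stromal markers at 2.71 to 4.42 CPM. In 7 libraries more than 1% of the counts fell on a ribosomal RNA gene, namely 1 of 4 with HCl, 3 of 4 with DMSO, 2 of 5 with norepinephrine and 1 of 5 with UK14304. The pancreatic genes Cpa1, Prss2 and Ins2 had no count in any library, and the pancreas list reached 85.0 to 152 CPM, most of it from Ctrb1. CPM stands for the reads of a gene relative to all reads of its library, here corrected for library composition with TMM factors.

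The family was dominated by Reg1. In the 8 vehicle samples, per kilobase of merged exons, Reg1 stood at 1156 ± 763 CPM per kb (mean ± SD, n = 8), Reg3a at 411 ± 104, Reg3b at 219 ± 49.0, Reg4 at 99.1 ± 6.79, Reg3g at 30.2 ± 6.04, Reg3d at 2.12 ± 0.434 and Reg2 at 0.0700 ± 0.0560. Neighbours in this order overlapped at the top: Reg1 spanned 145 to 2189.9 CPM per kb, Reg3a 244 to 530.3 and Reg3b 156 to 305. Below Reg3b, no member's range met that of the next, from 91.8 to 112 for Reg4, 24.7 to 40.8 for Reg3g, 1.61 to 3.05 for Reg3d and at most 0.137 for Reg2. The place of Reg3g depends on the length used, because its merged exons (2114 bases) include a transcript with a retained intron. Per kilobase of its protein-coding transcript (771 bases) Reg3g was at 82.8 CPM per kb (67.7 to 112), which overlaps Reg4.

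**Figure D1:**
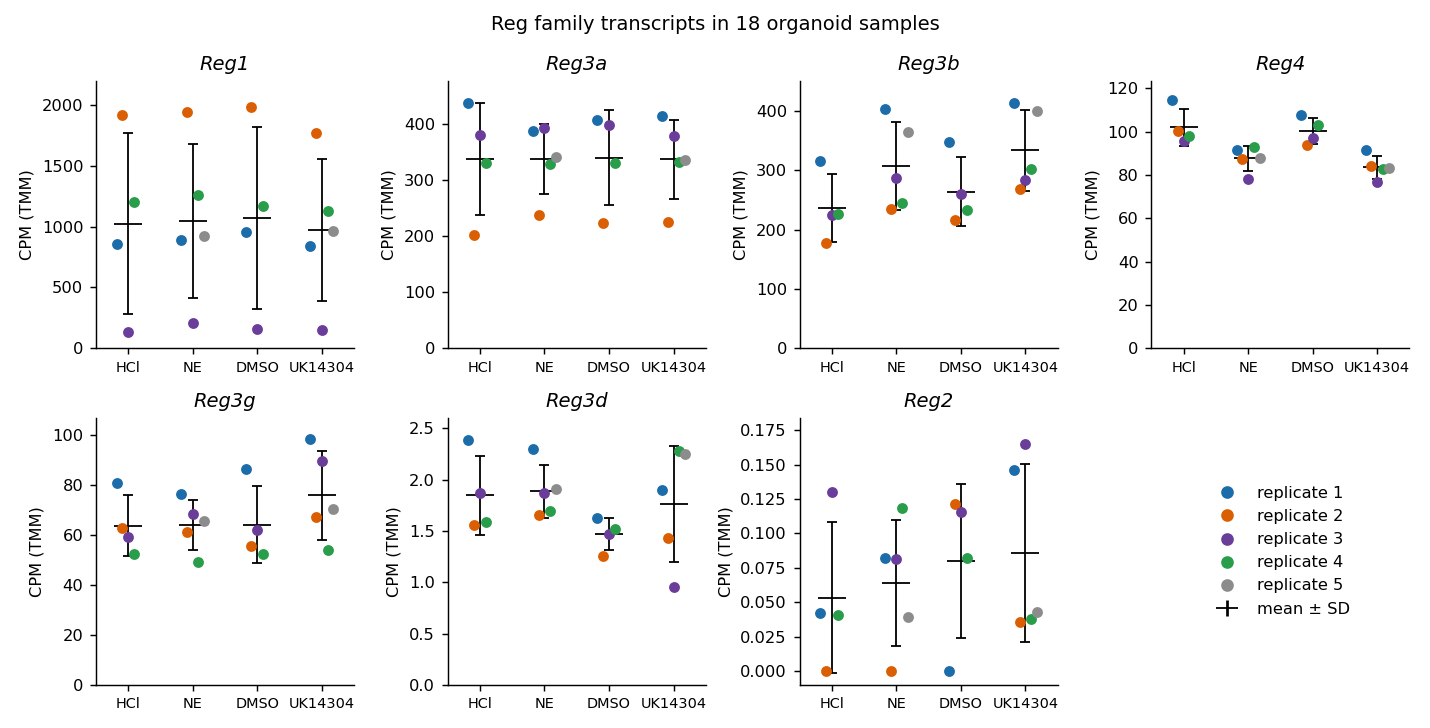
Each panel plots 1 Reg gene in CPM (TMM-scaled, linear axis) for the 4 groups, with 1 point per sample coloured by replicate number and black bars for mean ± SD. Reg1 spans 131 to 1979.7 CPM with the same order of replicates in every group, Reg4 lies lower with both agonists than with either vehicle, and Reg2 stays at or below 0.165 CPM.

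Reg2 was all but absent, with 0 to 4 counts per library and 32 counts over all 18 libraries. In 3 libraries it had no count, which allows a level of up to 0.114 to 0.137 CPM there (3 counts of the total, counting error only). It did not pass the filter on low counts, and the remaining 6 members were tested among 15247 genes. A gene was called at a Benjamini-Hochberg adjusted p under 0.05 in edgeR's quasi-likelihood test, with the replicate number as a block. By that rule 1 of 6 members was called for norepinephrine against HCl, beside 0.105% of all genes tested, and 2 of 6 for UK14304 against DMSO, beside 1.22% of all genes tested. Most genes called were lower with the agonist, 14 of 16 for norepinephrine and 159 of 186 for UK14304. Both shares of all genes tested depend on single libraries. Without norepinephrine replicate 4 the genes called rose from 16 to 2529 for norepinephrine and from 186 to 1225 for UK14304. Without DMSO replicate 2 those for UK14304 fell to 68. Without the block 0 of 6 were called in either comparison. Since the family was picked from these comparisons, nothing is read from the counts. No label says that the samples of a group came from separate animals, so p-values measure only the spread between these samples. As RNA came from whole organoids, fewer cells of a type and less RNA per cell cannot be told apart.

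Reg3b, whose product binds Gram-negative bacteria, was the member called higher with both agonists. In replicates 1 to 4 it was at 316, 178, 224 and 226 CPM with HCl, and in replicates 1 to 5 at 403, 234, 287, 244 and 365 CPM with norepinephrine. With DMSO it was at 348, 216, 259 and 233 CPM, and with UK14304 at 413, 268, 283, 303 and 399 CPM. The groups overlapped in both comparisons, but within every replicate number the agonist sample was the higher of the pair, by 1.27, 1.32, 1.28 and 1.08 times with norepinephrine and by 1.19, 1.25, 1.09 and 1.30 times with UK14304. The fitted log2 fold change was 0.30 ± 0.05 (SE) with norepinephrine and 0.27 ± 0.05 with UK14304, that is 1.23 and 1.20 times. The call for norepinephrine did not hold without HCl replicate 1, 2 or 3 or norepinephrine replicate 1 or 3, where the log2 fold change was between 0.27 and 0.32. With all 4 libraries of replicate 3 left out, neither call held, and the values were 0.30 and 0.31.

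Reg4, the distant relative on chromosome 3, moved the other way and was the only member whose groups did not overlap. It was at 115, 100.1, 95.8 and 97.8 CPM with HCl and at 91.5, 87.5, 78.3, 92.8 and 88.0 CPM with norepinephrine, so that every norepinephrine sample lay below every HCl sample. With DMSO it was at 108, 93.7, 96.9 and 103 CPM and with UK14304 at 91.5, 84.2, 76.6, 82.7 and 83.1 CPM, again without overlap. The share of all genes tested whose groups did not overlap was not counted, so nothing is read from the lack of overlap. Within replicate numbers the agonist sample was at 0.799, 0.874, 0.817 and 0.949 times its vehicle with norepinephrine and at 0.851, 0.899, 0.791 and 0.802 times with UK14304. The fitted log2 change was -0.22 ± 0.04 (SE) with norepinephrine and -0.26 ± 0.04 with UK14304. Of these the fall with UK14304 was called and that with norepinephrine lay just outside the threshold. The call for UK14304 did not hold without the whole of replicate 3 (-0.23). For norepinephrine Reg4 was called without norepinephrine replicate 4 (-0.23) and without UK14304 replicate 4 (-0.21), as well as by DESeq2 (-0.22), after removal of a GC trend (-0.23) and without the filter on low counts (-0.21). In the other 23 alternative fits it was not called, among them those with only the norepinephrine and HCl samples (-0.22) and with a ribosomal RNA term (-0.22).

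Reg3g, which acts on Gram-positive bacteria, was at 80.6, 62.9, 59.0 and 52.2 CPM with HCl and at 76.4, 61.0, 68.1, 49.1 and 65.4 CPM with norepinephrine. The fitted log2 change there was 0.01 ± 0.07 (SE). With DMSO it was at 86.2, 55.7, 61.7 and 52.5 CPM and with UK14304 at 98.3, 67.1, 89.4, 54.1 and 70.4 CPM. The UK14304 sample was the higher of the pair in 4 of 4 replicate numbers, by 1.14, 1.21, 1.45 and 1.03 times, although the groups overlapped. Its log2 fold change of 0.25 ± 0.07 was similar in size to that of Reg3b but was not called. It was called in 1 of the 18 fits without 1 library, that without UK14304 replicate 4 (0.29), as well as by DESeq2 (0.25), with only the UK14304 and DMSO samples in the fit (0.27) and without the filter on low counts (0.24). In the other 24 alternative fits it was not called, among them that with a ribosomal RNA term (0.26).

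Reg1 was at 853, 1914, 131 and 1198 CPM with HCl and at 886, 1945, 204, 1257 and 923 CPM with norepinephrine. With DMSO it was at 955, 1979.7, 161 and 1171 CPM and with UK14304 at 838, 1768, 147, 1129 and 963 CPM. In each group the samples of replicate 2 were the highest and those of replicate 3 the lowest, and the groups overlapped almost completely. The log2 fold change was 0.16 ± 0.08 (SE) with norepinephrine and -0.11 ± 0.08 with UK14304, and neither was called, except that with norepinephrine it was called without the filter on low counts (0.17). With norepinephrine the pairs differed by 1.04, 1.02, 1.56 and 1.05 times, and the value fell to 0.09 without HCl replicate 3 and to 0.07 without norepinephrine replicate 3.

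Reg3a and Reg3d were not called with either agonist. Reg3a was at 202 to 438 CPM with HCl, 239 to 394 with norepinephrine, 223 to 406 with DMSO and 225 to 414 with UK14304, and its log2 fold changes were 0.03 ± 0.05 (SE) and -0.01 ± 0.05. Reg3d, with only 23 to 60 counts per library, was at 1.55 to 2.38 CPM with HCl, 1.65 to 2.30 with norepinephrine, 1.26 to 1.62 with DMSO and 0.950 to 2.28 with UK14304. Its log2 fold changes of -0.02 ± 0.19 and 0.20 ± 0.19 carry 95% intervals from -0.41 to 0.38 and from -0.20 to 0.61, which include changes of the size seen for Reg3b, so that such a change was not detectable at this depth.

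**Figure D2:**
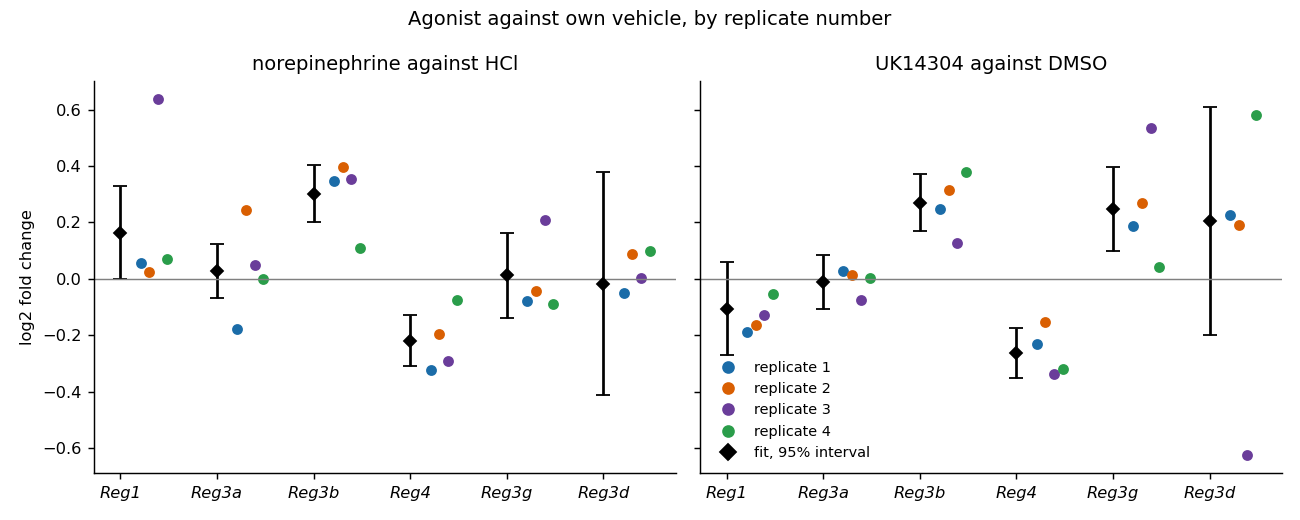
Log2 fold changes of the 6 tested Reg genes are plotted for norepinephrine against HCl (left) and UK14304 against DMSO (right), with black diamonds and bars for the fitted value and its 95% interval and coloured points for the ratio within each of replicates 1 to 4. Reg3b lies above 0 and Reg4 below 0 in all 4 replicates with both agonists, and Reg1 in replicate 3 stands apart with norepinephrine at 0.64.

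The difference between the 2 agonist effects, UK14304 less norepinephrine, was taken from the same fit. It is built from the comparisons that the family was chosen on, so the members' values are again a description, without p-values. None of the 6 members was called, and 0% of all genes tested were (edgeR, 0 of 15247, with 405 at an unadjusted p under 0.05 and 1 called by DESeq2). Reg1 had the largest member difference, -0.27 ± 0.11 (SE; 95% interval -0.50 to -0.04), followed by Reg3g with 0.23 ± 0.10 (0.03 to 0.44) and Reg3d with 0.22 ± 0.26 (-0.33 to 0.77). Without the filter on low counts the difference for Reg1 was -0.28 ± 0.05 and was called. Reg3b differed by -0.03 ± 0.07 (-0.17 to 0.11), Reg4 by -0.04 ± 0.06 (-0.17 to 0.08) and Reg3a by -0.04 ± 0.06 (-0.17 to 0.09). These intervals are not adjusted for the number of genes, so an interval that leaves out 0 is not a call. The intervals of Reg3b and Reg4 bound how far the agonists could differ for these genes and do not show that they act alike.

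The vehicles gave the background between control groups. Their samples also enter the comparisons that the family was chosen on, so the members' values are a description here too, without p-values. HCl against DMSO called none of the 6 members and 0% of all genes tested (edgeR, 0 of 15247, with 277 at an unadjusted p under 0.05 and 0 called by DESeq2). Reg3b was lower with HCl than with DMSO in 4 of 4 replicate numbers, at 0.909, 0.826, 0.865 and 0.971 times. Its log2 difference was -0.16 ± 0.05 (SE). This gap between vehicles was smaller than either agonist value of Reg3b (0.30 and 0.27), but Reg3b ranked 16 of 15247 genes in this comparison. HCl, the vehicle with the lower Reg3b, is the one that the norepinephrine value was taken against. Reg1 differed by -0.11 ± 0.08, with HCl higher in 1 of 4, at 0.893, 0.967, 0.817 and 1.02 times DMSO. Reg3d was higher with HCl in 4 of 4, by 0.33 ± 0.20. Reg3a differed by -0.03 ± 0.05, Reg4 by 0.02 ± 0.04 and Reg3g by 0.00 ± 0.07.

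Differences between the replicate numbers were not used in choosing the family. For Reg1 the replicate numbers lay much further apart than the treatments did. For Reg4 the span over the numbers (0.22 on the log2 scale) was similar in size to the agonist values (-0.22 and -0.26). An F-test over the replicate numbers, with the group in the model, called 5 of 6 members, beside 13.8% of all genes tested (2110 of 15247). Reg1 had an adjusted p of 2.42e-12 and ranked 3 of 15247 by its F statistic. Its mean over the groups was 883 CPM in replicate 1, 1902 in replicate 2, 161 in replicate 3, 1189 in replicate 4 and 943 in replicate 5, with at most 1.56 times between the lowest and highest library of 1 number (131 and 204 in replicate 3). From the lowest to the highest number Reg1 spanned a fitted 11.9 times (3.57 on the log2 scale), and 0.210% of genes had a larger span, where the median gene spanned 0.20. The share of the summed family CPM taken by Reg1 was 76.0% in replicate 2 and 16.5% in replicate 3, so that the order of the members changed: in replicate 3 Reg3a (470.1 CPM per kb) and Reg3b (231) exceeded Reg1 (178).

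The remaining members varied less, and each in its own order. Reg3a was lowest in replicate 2, where Reg1 was highest, at 222 CPM against 331 to 411 in the other 4 numbers (adjusted p = 1.52e-09 in the same edgeR F-test). Reg3b was higher in replicates 1 and 5 (370.0 and 382 CPM) than in replicates 2, 3 and 4 (224 to 263; adjusted p = 1.65e-08). Reg3g was highest in replicate 1 (85.4 CPM) and lowest in replicate 4 (51.9; adjusted p = 1.82e-05). Reg4 spanned 85.6 to 101 CPM (adjusted p = 0.0170), a fitted 1.17 times, and 46.5% of genes had a larger span. The call for Reg4 did not hold without HCl replicate 1 (adjusted p = 0.115), DMSO replicate 1 (0.0580), norepinephrine replicate 3 (0.0563), UK14304 replicate 1 (0.0735) or UK14304 replicate 3 (0.0608). Reg3d was not called (adjusted p = 0.352). With replicate 3 left out 4 of 6 members were called, all but Reg3d and Reg4. In that fit 545 of all genes tested were called, against 2110 with replicate 3 kept.

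**Figure D3:**
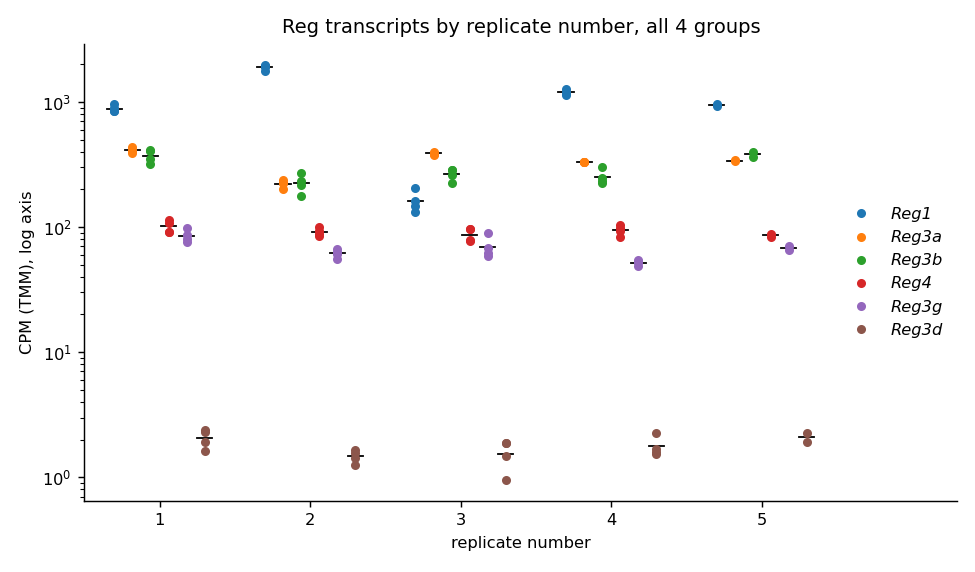
Levels of the 6 tested Reg genes (CPM, log axis) are plotted against the replicate number, with 1 point per sample from all 4 groups and short black bars at the means. Reg1 falls to 161 CPM in replicate 3, below Reg3a and Reg3b, and peaks at 1902 CPM in replicate 2, while Reg3a dips to 222 CPM in replicate 2.

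The genes most like each member were ranked by Pearson's r of log2 CPM after removal of the group means, over 18 samples that share 5 replicate numbers and 4 treatments; these values are a description, without p-values. For Reg1 the closest were Pdx1 (r = 0.996), Akp3 (0.990), Plut (0.988), Dlat (0.985) and Ces2g (0.985). Pdx1 encodes a homeobox transcription factor of the pancreas and the duodenum, and Akp3 an alkaline phosphatase of the duodenum. Pdx1 averaged 11.6, 34.1, 1.02, 14.5 and 11.4 CPM in replicates 1 to 5, and Akp3 91.0, 589, 3.82, 165 and 76.4 CPM, the same order of highest and lowest as Reg1. Plut is an antisense transcript that overlaps Pdx1. As the counting did not use strand, reads from the part where the 2 genes overlap cannot be given to either gene. Of the 50-base stretches of Akp3, 1.57% also occur in its neighbour Alpi.

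**Figure D4:**
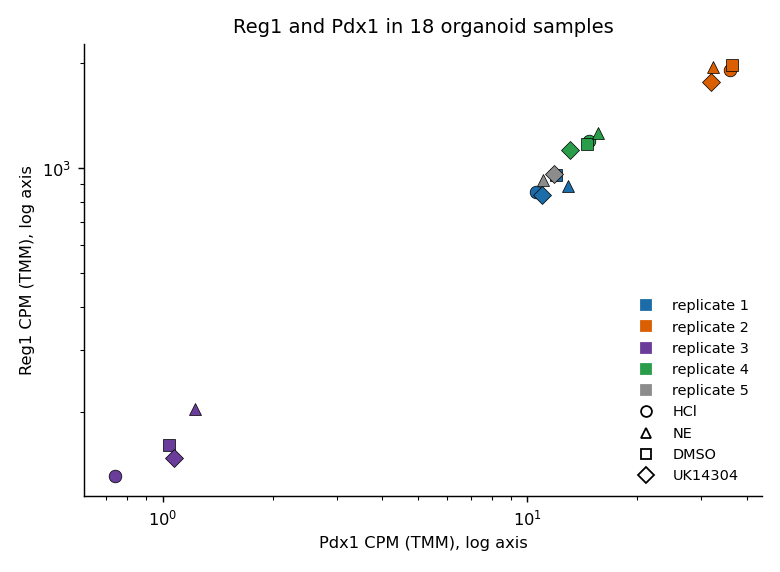
Reg1 is plotted against Pdx1 in the 18 samples (CPM, both axes log), with colours for the replicate number and symbols for the group. The samples lie by replicate number, from replicate 3 (Pdx1 0.739 to 1.22 CPM) to replicate 2 (31.8 to 36.3 CPM), and not by treatment.

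Because of Pdx1, genes known for their position along the small intestine were looked up after these values had been seen, and they were not tested. Of 5 genes known from the proximal end besides Pdx1, 4 were highest in replicate 2 and all 5 were lowest in replicate 3. The iron exporter Slc40a1 had 241 against 17.4 CPM in replicates 2 and 3, the duodenal iron reductase Cybrd1 553 against 95.5, the transcription factor Onecut2 320.3 against 120 and the transcription factor Gata4 220.1 against 167, while the hormone Gip peaked in replicate 4 (120.3) and had 105 against 78.4. All 4 genes known from the distal end were highest in replicate 3. The transcription factor Osr2 mirrored Reg1 (r = -0.93), with 17.4 CPM in replicate 2 and 51.2 in replicate 3. The ileal bile acid genes Fabp6 and Slc10a2 and the receptor gene Cubn had 6.56, 7.12 and 9.96 CPM in replicate 3, but replicate 2 came second for all 3 of them, with 3.99, 6.00 and 4.73 CPM. The part of position along the intestine in the Reg1 levels was not tested.

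For Reg3a the closest genes were Tmem86a (0.978), Slc28a1 (0.970), Trim38 (0.967), Sec14l2 (0.961) and Spink1 (0.959), a trypsin inhibitor gene, each of which was lowest in replicate 2 as Reg3a was. For Reg3b they were Nat8f4 (0.905), Slc17a4 (0.879), Hsd17b6 (0.870), Dapp1 (0.864) and G6pc (0.847), the glucose-6-phosphatase gene. The likest genes of Reg3d were A330035P11Rik (0.839), Selenop (0.817), Slc7a15 (0.792), 1700108F19Rik (0.791) and Clic5 (0.777), those of Reg3g Glrx (0.83), Btf3 (0.83), Tmem175 (0.82), 4833420G17Rik (0.82) and Dynlt1b (0.81), and those of Reg4 Emc3 (0.853), Gm26912 (0.852), Msra (0.849), 1810055G02Rik (0.848) and Tspan3 (0.847). With the group means left in, the genes named for Reg4 changed most, and Emc3 had 0.47 and was rank 2296. No member was among the 5 likest genes of another. Between members the largest values were 0.72 for Reg3a with Reg3b, 0.66 for Reg3b with Reg3d, 0.65 for Reg3b with Reg3g and -0.63 for Reg1 with Reg3a. After removal of the replicate means as well, Reg3b with Reg3g was at -0.50, so that the positive value came with the replicate numbers.

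Genes on the known route to Reg3 expression were compared next, from a list of 18 that holds receptor subunits for interleukin-22, interleukin-6 and interleukin-17, the kinases and STAT3 behind them, the Toll-like receptor and MyD88 branch, the NF-κB genes and Extl3, a receptor named for Reg proteins. This and the other gene lists were chosen with earlier results of these data known, so their values and calls are a description, without p-values. Over all lists other than the Reg family, 5 genes were called for UK14304, and 2 with a ribosomal RNA term in the fit. All 18 genes of the present list passed the filter, and 0 were called with either agonist, beside 0.105% and 1.22% of all genes tested. The median log2 fold change of the list was -0.02 with norepinephrine and 0.02 with UK14304, against -0.0077 and -0.0043 over all genes tested. Il22ra1 was at 48.5, 47.2, 45.4 and 46.9 CPM on average with HCl, DMSO, norepinephrine and UK14304, and Stat3 at 104, 100.4, 103 and 98.1 CPM. The largest values were those of the barely counted Tlr4 with norepinephrine (0 to 46 counts; 0.74 ± 0.57) and Il6ra with UK14304 (10 to 42 counts; -0.48 ± 0.26), and at the other ends stood Tyk2 (-0.12 ± 0.06) and Tlr2 (0.12 ± 0.15).

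Of 13 other genes known to respond to interleukin-22 or STAT3, 8 passed the filter, and the acute-phase and calprotectin genes Saa1, Saa2, S100a8 and S100a9 and the goblet product Retnlb had at most 1 count in any library. With norepinephrine 0 were called and 1 of 8 had a positive value, with a median of -0.20. With UK14304 the kinase gene Pim1 was called higher (13.3 CPM with DMSO and 16.5 with UK14304). Its log2 fold change was 0.31 ± 0.07 (SE), while the median of the list was -0.11. Pim1 had 0.03 ± 0.07 with norepinephrine. The lowest values were those of the dual oxidase maturation factor Duoxa2 with norepinephrine (-0.33 ± 0.24) and of Nos2 with UK14304 (-0.24 ± 0.11). Socs3, the feedback inhibitor of STAT3, had -0.16 ± 0.09 and -0.18 ± 0.09, and was not called.

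Among 8 other secreted antimicrobial and mucosal defence genes, 1 fell with norepinephrine and 2 fell with UK14304, beside 0.105% and 1.22% of all genes tested, of which most were lower, and 7 of 8 had negative values with each agonist. Lysozyme (Lyz1) was called lower with both, by 0.37 on the log2 scale with norepinephrine (SE 0.05) and by 0.31 with UK14304 (SE 0.05). Angiogenin 4 (Ang4) was called lower with UK14304, by 0.27 (SE 0.06). The immunoglobulin transporter Pigr had the highest values, 0.07 ± 0.03 and 0.10 ± 0.03. The medians of the list were -0.18 with both agonists, where the Reg family had 0.02 and 0.10. The values of Reg4 (-0.22 and -0.26) lay within the range of this list (-0.37 to 0.07 and -0.31 to 0.10), and those of Reg3b (0.30 and 0.27) lay above it.

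Cell type markers are given beside these values, and their part in the Reg levels was not tested. Of the 5 Paneth markers 2 fell with norepinephrine and 3 with UK14304, again beside 0.105% and 1.22% of all genes tested, none had a positive value, and the medians were -0.29 and -0.27. These counts include Lyz1 and, for UK14304, Ang4, which are the calls already given for the antimicrobial list. Defa22 belongs to a family of closely similar defensin genes that reads can be split between. Of the 5 markers it had the lowest value (-0.69 ± 0.10 and -0.70 ± 0.10, both called), and Defa17 the highest (-0.21 ± 0.07 and -0.24 ± 0.07, not called). Their summed level was 2334 to 3574 CPM with HCl and 1906 to 2666 with norepinephrine, and 2227 to 3443 with DMSO and 1941 to 2889.8 with UK14304. Of the 4 goblet markers, Agr2 was called lower with UK14304 (-0.16 ± 0.04), with Tff3 lowest (-0.19 ± 0.09 and -0.23 ± 0.09) and Muc2 highest (0.00 ± 0.07 and 0.11 ± 0.07). No enteroendocrine marker (5 tested), stem cell marker (6), enterocyte marker (4), tuft cell marker (2 of 4) or general epithelial marker (4) was called with either agonist. Their extremes were Neurog3 (-0.11 ± 0.10) and Tac1 (0.09 ± 0.10) with norepinephrine and Tph1 (-0.15 ± 0.07) and Tac1 (0.10 ± 0.09) with UK14304 among enteroendocrine markers. Among enterocyte markers the lowest was Apoa4 (-0.16 ± 0.08 and -0.28 ± 0.08) and the highest Fabp1 (0.00 ± 0.05 and -0.08 ± 0.05), and among stem cell markers Slc12a2 was highest with both (0.14 ± 0.07 and 0.19 ± 0.07), with Ascl2 (-0.06 ± 0.08) and Gkn3 (-0.06 ± 0.07) lowest. Of the tuft cell markers Dclk1 had 0.18 ± 0.09 with both and Trpm5 -0.04 ± 0.08 and 0.08 ± 0.08.

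**Figure D5:**
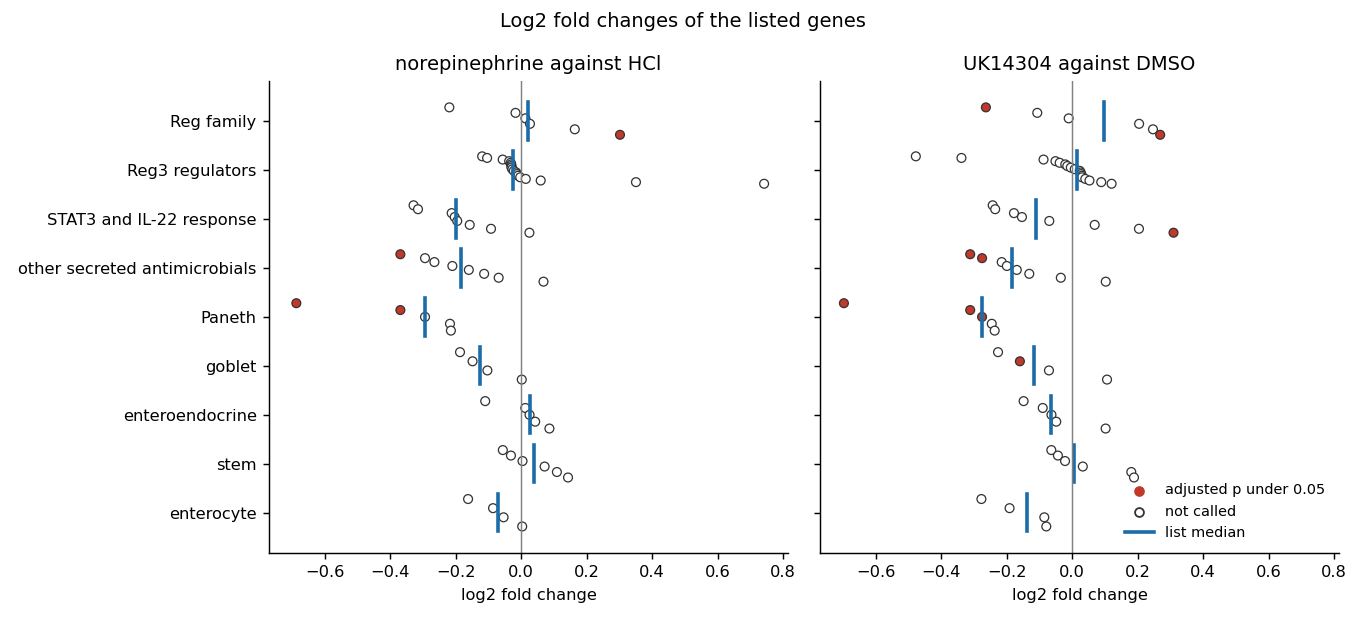
Log2 fold changes of every tested gene of 9 lists are plotted for norepinephrine (left) and UK14304 (right), with red points for genes called at an adjusted p under 0.05, open points for the rest and a blue line at each list's median. The Reg family has a red point on the right of 0 with norepinephrine and on both sides with UK14304, whereas the Paneth markers lie to the left of 0 with both agonists.

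The marker sums also differed between replicate numbers. Enterocyte markers summed to 6715 CPM in replicate 3 on average and to 8628 to 9807 CPM in the other 4 numbers. The sum of the stem cell markers was highest in replicate 3 (6230.2 CPM) and lowest in replicate 2 (4461). Most of that sum came from Olfm4, which had group means of 3367 to 3886 CPM. Paneth markers summed to 2102 CPM in replicate 2 and 3068 in replicate 3. The pancreas list, with 97.8 CPM in replicate 2 and 104 in replicate 3, did not follow Reg1.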

How the data were processed

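RNA-seq of 18 organoid samples was used. The deposited values are raw read counts per gene for 55487 Ensembl genes: per the file headers, the authors counted uniquely assigned reads of 50 bases with featureCounts 2.0.1 against Ensembl release 102 on GRCm38 without using strand, while the study's methods name Subread 1.6.4. The submitters' processing notes name STAR 2.7.3. No normalisation had been applied. Total counts per sample were 21866149 to 27850373, and intervals and limits from counts cover counting error only.

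Counts were fitted with edgeR 4.0.16 (quasi-likelihood, TMM factors, R 4.3.3) on the 15247 genes kept by its filter on low counts, with group and replicate number as terms and all 18 samples in the fit, and p-values were adjusted by Benjamini-Hochberg. Log2 CPM used a prior count of 2. Same-numbered samples of an agonist and its own vehicle deviated together (r of 0.119 to 0.431 for HCl with norepinephrine and 0.155 to 0.520 for DMSO with UK14304, over 4 pairs each), so the numbers were taken as pairs. Between the 2 agonists, same-numbered samples had r of -0.212 to 0.436 over 5 pairs, with -0.212 in replicate 4. Norepinephrine replicate 4 had 0.248 with UK14304 replicate 1, above its 0.119 with HCl replicate 4. The pairing comes from the sample names and the data. The scripts were tested on simulated data.

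The members and gene lists were chosen with earlier results of these data known. Named were all members, the 5 genes most like each, and from each list the genes called and those with the highest and lowest change. Alternatives were DESeq2 1.42.0, other size factors, filters, thresholds and covariates, no block, and fits without each library. The genes of intestinal position, the fit without replicate 3 and the levels per kilobase of coding transcript were added after seeing the data. Symbols and transcripts came from GENCODE M21, which names 55141 of the identifiers, and promoter windows from RefSeq, which held all 7 members.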

Additional observations from a re-analysis of the deposited data

Results flagged for a closer look

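Reg1 was picked out because the paired samples moved in opposite directions under the 2 agonists: it was higher with norepinephrine than with HCl in 4 of 4 replicate numbers and lower with UK14304 than with DMSO in 4 of 4. The difference between the effects, UK14304 less norepinephrine, was -0.27 on the log2 scale (SE 0.11, 95% interval -0.50 to -0.04). It was not called in the main fit, nor was any other gene, and the interval is not adjusted for the number of genes. No p-value is given, since the family was chosen from the comparisons that this difference is built from. The largest ratio behind it was that of replicate 3 with norepinephrine (1.56 times), in the number where Reg1 was lowest. Reg1 also differed between the vehicles, by -0.11 (SE 0.08) for HCl less DMSO, and both vehicles enter the difference between the agonist effects. A check of each tested member in each group for a sample far from the others, 24 checks in all, found 0.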

How the results depend on the processing

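With the replicate block left out, the members called fell from 1 to 0 (norepinephrine) and from 2 to 0 (UK14304), the other listed genes to 0 and 0, and all genes to 0 and 6; the log2 change of Reg3d with norepinephrine became 0.031 and that of Reg3g between vehicles -0.0084. Without the filter on low counts 3 members were called for norepinephrine and 1 for the difference between agonists, 12 and 17 listed genes and 153 and 627 of all genes for the 2 agonists, 24 for their difference and 17 between vehicles, and Reg3g between vehicles was -0.0062. DESeq2 called 2 members, 5 listed genes and 29 genes for norepinephrine, and 10 listed genes for UK14304. With each agonist and its own vehicle alone, 12 listed genes and 525 genes were called for UK14304, Reg3d with norepinephrine was 0.030 and Reg3a with UK14304 0.0012. A ribosomal RNA term left 2 listed genes and 78 genes for UK14304, with Reg3d at 0.0078. Removal of a GC trend gave 2 members, 5 listed genes and 31 genes for norepinephrine, 9 and 626 for UK14304, 3701 between replicate numbers, and Reg3g at -0.055 with norepinephrine. An adjusted p under 0.01 left 2 listed genes and 91 genes for UK14304 and 1335 between replicate numbers; under 0.1 there were 2 members and 4 listed genes for norepinephrine, and 8 listed genes and 325 genes for UK14304.

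Over the fits that left out 1 library or 1 replicate number, members called ranged from 0 to 2 for norepinephrine and 0 to 3 for UK14304, listed genes from 0 to 20 and 1 to 15, and all genes from 5 (without replicate 3) to 2529 (without norepinephrine replicate 4) and from 23 (without replicate 3) to 1225 (without norepinephrine replicate 4). Signs changed only among values near 0: with norepinephrine Reg3d ranged from -0.13 to 0.064, Reg3a from -0.016 to 0.087 and Reg3g from -0.049 to 0.065; with UK14304 Reg3a ranged from -0.016 to 0.013; for the difference Reg3a ranged from -0.089 to 0.013 and Reg3b from -0.075 to 0.011; between vehicles Reg3a ranged from -0.077 to 0.025, Reg3g from -0.042 to 0.066 and Reg4 from -0.0069 to 0.054. The fit without replicate 3 was chosen after seeing the data. The causes of the changes in calls were not tested. Depth limits Reg2 and Reg3d.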
